A study of Mus musculus with 12 samples.

Results

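Ly6C-high blood monocytes of TRIM33 and WT mice were profiled on 12 single-colour arrays, and these arrays fell into a group with high cell cycle and granule protein genes and a group with high monocyte maturity and blood cell genes. The former, called the cycling arrays here, are TRIM33 replicates 4, 5 and 6 and WT replicates 1, 2 and 3. The latter, called the mature arrays, are TRIM33 replicates 1, 2 and 3 and WT replicates 4, 5 and 6. The comparison thus takes 6 and 6 of the 12 arrays, with 3 arrays of each genotype on each side. The sides were chosen by clustering the same array values that are described below, and no label gives a reason for the split. Every difference between the sides is therefore a description, and no p-value is given for it. The names stand for groups of arrays and not for cell types.

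All 12 arrays carry the strain label C57BL/6 LyzCre and an age of 6 to 8 weeks, and no treatment of the mice is given. LyzCre is a Cre recombinase driven from the lysozyme M locus, which is active in monocytes, macrophages and neutrophils, and TRIM33 is a chromatin-binding protein of the tripartite motif family. The TRIM33 arrays come from the mice labelled TRIM33 and the WT arrays from the mice labelled WT. Neither the carriage of the recombinase by the WT mice nor the Trim33 allele of the others is stated in the labels. The series design gives a sort for CD11b, CD115 and high Ly6C, while the treatment text of the same labels describes a sort of CD4 T cells. The titles name 4 arrays as mixes, and all 4 lie on the mature side, as TRIM33 replicates 2 and 3 and WT replicates 5 and 6. The labels do not say how many animals a mix holds, nor that the other arrays come from separate animals, so the spread between arrays may be partly technical. Each array started from 900 pg of RNA.

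Monocytes arise in the bone marrow from dividing myeloid progenitors that transcribe the genes of granule proteins such as myeloperoxidase and elastase. As cells of this lineage mature they leave the cell cycle, stop transcribing most granule genes and enter the blood as Ly6C-high cells, part of which convert to Ly6C-low patrolling monocytes under the nuclear receptor Nr4a1. Red cells and platelets have no nucleus but carry RNA, above all that of globins in red cells and of platelet chemokines in platelets.

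The sort markers were present on all 12 arrays. Ly6c2, which encodes the Ly6C antigen, had log2 values of 12.20, 12.34 and 12.45 (lowest, median and highest; this order is kept throughout) on the cycling arrays and 12.27, 12.32 and 12.55 on the mature arrays, so the sides overlapped. Csf1r, which encodes CD115, read 9.73, 9.98 and 10.12 on the cycling and 10.88, 11.04 and 11.09 on the mature arrays, a difference of -1.07 (cycling minus mature, SE 0.079, 6 against 6 arrays) without overlap. Itgam, which encodes CD11b, read 9.40, 9.69 and 9.88 and 10.41, 10.46 and 10.68, a difference of -0.83 without overlap. Ccr2, the chemokine receptor of Ly6C-high monocytes, differed by -0.29, from 11.42 to 11.61 to 11.72 to 11.87. Of the T cell genes that the treatment text would call for, Cd4 read 2.56 to 3.44 and 2.64 to 3.60 and Cd3e 2.94 to 3.73 and 3.65 to 4.89. For scale, 95% of 1344 olfactory and vomeronasal receptor genes had means of at most 4.03 on the cycling and 4.02 on the mature arrays, a rough yardstick of dim signal that was added after the data were seen.

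Several other features moved with the split. Xist, transcribed from the inactive X chromosome of female cells, read 9.01 to 10.18 on the cycling and 3.36 to 3.64 on the mature arrays, and the Y-linked Eif2s3y read 2.19 to 2.89 and 8.09 to 8.47. X and Y genes were left out of every count below, and the part of sex in the other differences was not tested. Within the mature side TRIM33 replicate 2 stood apart, with the highest means of both granule lists, the mitosis list and the Ly6C-high monocyte list and the lowest means of the Ly6C-low monocyte and MHC class II lists, which are given with the genes concerned. The arrays titled as mixes held higher red cell gene values than the other 2 mature arrays, TRIM33 replicate 1 and WT replicate 4, and those 2 arrays held higher immediate early gene values.

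The 7 marker genes of the comparison separated the sides without overlap. Mpo, myeloperoxidase of the primary granules, read 10.91, 11.39 and 11.55 on the cycling and 4.74, 5.02 and 5.15 on the mature arrays. Elane, neutrophil elastase, read 10.27, 10.42 and 10.77 and 3.81, 4.23 and 5.56. Myb, a transcription factor of dividing haematopoietic progenitors, read 7.79, 7.99 and 8.10 and 3.52, 3.89 and 4.12. All 3 were high on every cycling array and low on every mature array, with the mature values of Myb in the range of the dim yardstick or just above it. Mki67, which encodes the proliferation antigen Ki-67, read 9.46, 9.68 and 9.92 against 4.91, 5.39 and 6.58, with TRIM33 replicate 2 highest among the mature arrays. The markers of the other side had the opposite pattern. Ace, angiotensin-converting enzyme, an enzyme of Ly6C-low monocytes, read 4.72, 5.34 and 5.61 on the cycling and 8.25, 9.28 and 9.58 on the mature arrays. Treml4, a receptor of the same cells, read 5.75, 6.22 and 6.75 and 8.68, 9.39 and 9.85. Hbb-b1, a beta globin of red cells, read 2.76, 2.94 and 4.31 and 11.05, 11.16 and 11.39, the widest gap of the 7. TRIM33 replicate 5 was the highest cycling array for it, at 4.31, with the other 5 between 2.76 and 2.97.

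**Figure D1:**
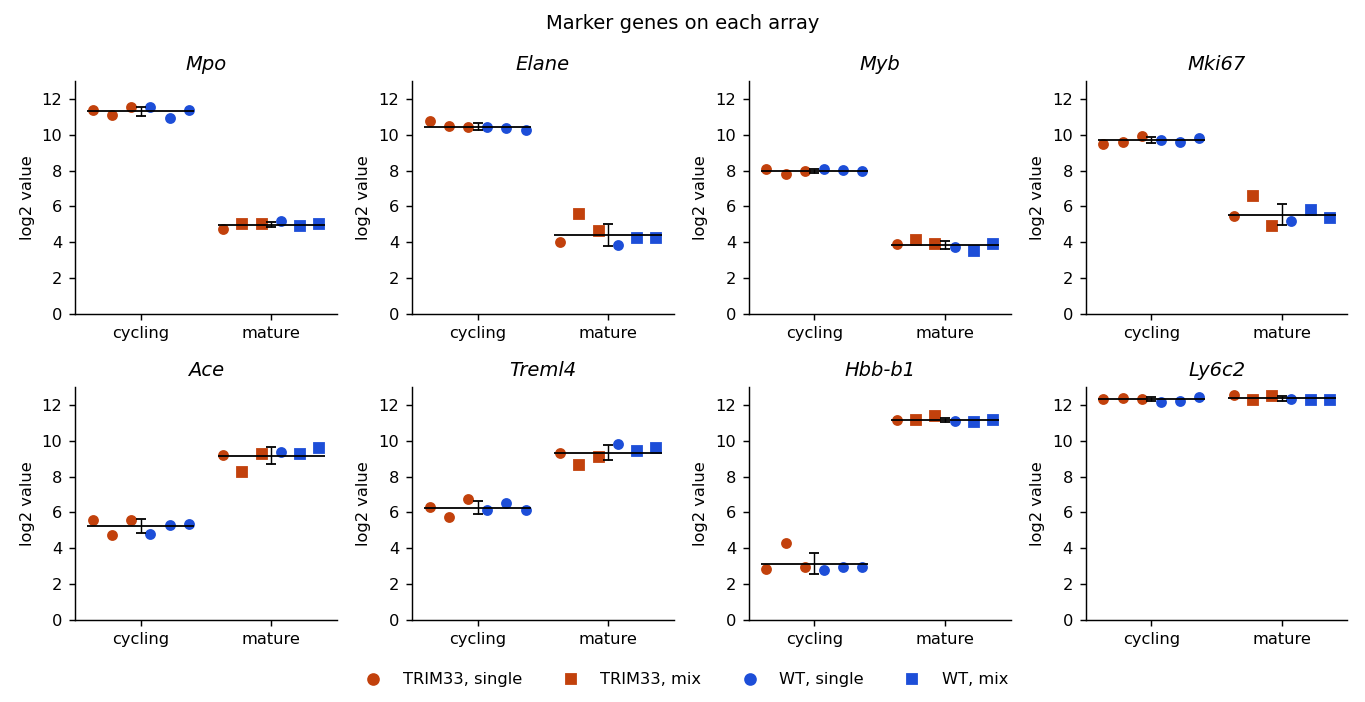
Log2 value (vertical axis) of the 7 marker genes of the comparison and of Ly6c2 on each of the 12 arrays, by side, with bars at the mean and the SD of 6 arrays. Mpo, Elane, Myb and Mki67 lie higher on every cycling array, Ace, Treml4 and Hbb-b1 higher on every mature array, and Ly6c2 overlaps.

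Across 22271 autosomal genes, 605 (2.72%) were higher on the cycling arrays by at least 1 log2 unit without overlap of the 6 and 6 arrays, and 381 (1.71%) were lower in the same way. Since these values also chose the sides, nothing is read from those shares, which stand as the background for every count of members below. The median difference over all genes was 0.00029. A difference of at least 2 was held by 250 genes in the first direction and 64 in the second, and at least 4 by 55 and 5. By count, large differences thus lay more often on the cycling side. The widest gaps among named genes were however those of Hbb-bs, at -9.06, and Hbb-b1, at -8.04. Of the 605 genes 120 are on the lists described below and 95 on the 4 cell cycle lists, whereas 62 of the 381 are on a list and 0 on those 4. Without TRIM33 replicate 2 the counts were 629 and 408, and without the mixes, with 2 mature arrays left, 728 and 491. With fewer arrays the rule of no overlap is easier to pass. A rise in such counts, here and below, is therefore not by itself read as a wider difference.

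**Figure D2:**
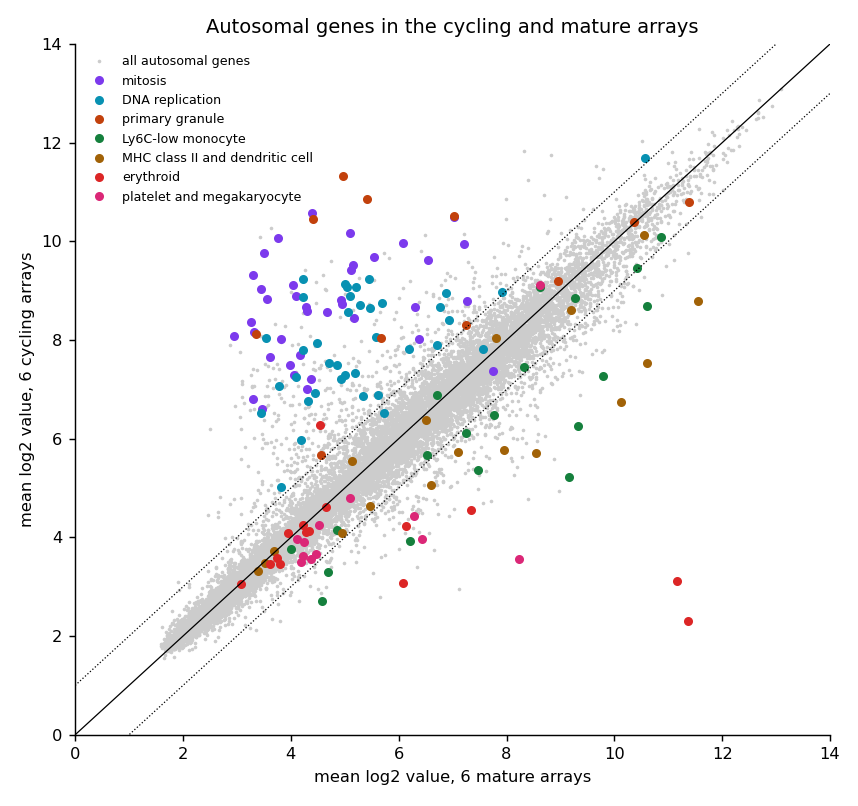
Mean log2 value of each autosomal gene on the 6 mature arrays (horizontal axis) and the 6 cycling arrays (vertical axis), with the diagonal and lines at 1 log2 unit on either side of it (dotted). Most mitosis and DNA replication genes and several primary granule genes lie above the band, and some Ly6C-low monocyte, MHC class II, platelet and red cell genes lie below it.

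Among named genes the 15 with the highest differences were Pclaf, H2ac4, Mpo, Top2a, Cdk1, Ccna2, Elane, Nuf2, Kif11, Pbk, Ctsg, Ndc80, Cdca8, Bub1 and Prc1, from 6.65 for Pclaf to 5.10 for Prc1. The mature means of 10 of the 15 lay below the dim yardstick, so those differences may be understated and the order among the 15 is not set. Of the 15, 3 encode granule proteins and the others a histone or proteins of DNA replication and mitosis. The 15 lowest were Hbb-bs, Hbb-b1, Ppbp, Ctla2a, Egr1, Ace, Tent5c, H2-Aa, Tppp3, Treml4, H2-Ab1, Car2, Cmklr1, Hbq1a and Pltp, from -9.06 to -2.89, and the same holds for the 6 of them whose cycling means lay below it. They mix red cell and platelet genes with monocyte and antigen presentation genes. Cmklr1, the chemerin receptor, read 3.75, 4.67 and 5.51 on the cycling and 7.23, 7.64 and 8.54 on the mature arrays. Pltp, phospholipid transfer protein, read 4.72, 5.32 and 5.78 and 7.23, 8.37 and 8.53. Tppp3, a tubulin-binding protein, read 4.55, 5.71 and 6.42 and 8.35, 8.97 and 9.19. Ctla2a, an inhibitor of cathepsin-type proteases, read 2.39, 2.97 and 3.40 and 5.62, 7.27 and 8.11, and Tent5c, a poly(A) polymerase, 4.17, 4.80 and 5.24 and 7.0, 8.56 and 9.61. These 5 did not overlap, but Ctla2a and Tent5c were also higher on the mixes, at means of 7.65 and 8.95, than on the other 2 mature arrays, at 6.04 and 7.32.

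Genes of the primary granules, the first granules that a developing neutrophil or monocyte makes, were the leading maturity-related genes of the cycling arrays. Of 11 measured members 7 were higher by at least 1 log2 unit without overlap and 0 lower, with a list median of 2.37. Mpo differed by 6.34 (SE 0.12), or 81.1-fold on the linear scale, and by 6.42 within the TRIM33 arrays and 6.26 within the WT arrays. The difference of Elane was 6.05 (SE 0.20). Ctsg, cathepsin G, read 10.71, 10.85 and 10.96 on the cycling and 4.86, 5.18 and 6.48 on the mature arrays, a difference of 5.45 (SE 0.19). Ms4a3, a membrane protein of granulocyte and monocyte progenitors, read 7.81, 8.19 and 8.29 and 2.98, 3.37 and 3.96, so its mature values lay in the dim range. Prtn3, proteinase 3, read 10.04, 10.60 and 10.73 and 6.38, 6.83 and 8.41. Cst7, the protease inhibitor cystatin F, differed by 2.37, and Prss57, another serine protease of neutrophil granules, by 1.11. TRIM33 replicate 2 was the highest mature array for Elane, Ctsg and Prtn3. The remaining members did not separate, with Calr at 0.03, Gusb at 0.24, Srgn at -0.59 and Serpinb1a at 1.05 with overlap. Calreticulin, beta-glucuronidase and serglycin, which these genes encode, are made by many mature blood cells too. The mean over the list was 9.29 to 9.58 on the cycling arrays, 7.12 on TRIM33 replicate 2 and 6.40 to 6.79 on the other 5 mature arrays.

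The secondary granule and neutrophil list was mixed. Of 17 members 6 were higher and 0 lower, with a median of 0.86, and without TRIM33 replicate 2 the count was 8. Camp, the cathelicidin peptide, read 5.85, 6.75 and 7.57 on the cycling and 2.80, 3.14 and 3.53 on the mature arrays, a difference of 3.59 (SE 0.21). S100a8 and S100a9 encode calprotectin, an abundant calcium-binding protein of neutrophils and monocytes. S100a8 read 10.55, 10.85 and 11.33 and 6.88, 7.57 and 10.32. S100a9 read 10.92, 11.21 and 11.66 and 7.52, 7.99 and 10.57, and for both genes the highest mature array, TRIM33 replicate 2, came close to the cycling range. Fcnb, ficolin B, read 8.27, 8.51 and 9.19 and 5.49, 5.74 and 7.13, and Ngp, neutrophilic granule protein, 5.27, 6.50 and 7.22 and 4.13, 4.28 and 4.72. Cebpe, a transcription factor of granule genes, differed by 1.36. Some other members of the list did not follow, in that Mmp8 differed by -0.49, Cd177 by -0.74, Cxcr2 by -0.12 and Mmp9 by 0.11. Ly6g, which encodes the neutrophil antigen Ly6G, read 3.24 to 3.82 on the cycling and 2.87 to 3.68 on the mature arrays. The list mean on TRIM33 replicate 2, 7.34, lay inside the cycling range of 7.10 to 7.73 and above the 6.05 to 6.46 of the other mature arrays.

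Regulators and surface markers of early progenitors differed in 4 of 21 measured members, 3 higher and 1 lower, with a median of -0.02. Myb differed by 4.14 (SE 0.10). Cd34, a surface sialomucin of progenitors and endothelium, read 6.66, 7.13 and 7.21 on the cycling and 4.49, 4.54 and 5.03 on the mature arrays, a difference of 2.37. Myc, a transcription factor of cell growth, read 6.90, 7.23 and 7.30 and 5.15, 5.57 and 6.12, a difference of 1.5. All 3 were higher on every cycling array. Flt3, a growth factor receptor of multipotent and dendritic cell progenitors, had the reverse pattern, with 5.06, 5.24 and 5.63 on the cycling and 6.22, 6.88 and 7.20 on the mature arrays. Kit, the stem cell factor receptor, read 3.57 to 4.16 and 3.28 to 3.66, and Gata2, a stem and progenitor cell factor, 3.56 to 3.82 and 3.34 to 3.72. Those values lie at or below the dim yardstick or just above it on both sides, as do the means of Sox4, Gfi1, Hlf and Mecom. Means over the list were 4.97 to 5.09 on the cycling and 4.67 to 4.76 on the mature arrays.

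The cell cycle genes were the largest coherent group. Of 38 measured DNA replication genes 36 were higher on the cycling arrays and 0 lower, with a median of 2.57. Rrm2, the small subunit of ribonucleotide reductase, which makes deoxynucleotides, read 9.05, 9.28 and 9.34 on the cycling and 3.53, 4.25 and 4.59 on the mature arrays, a difference of 5.02 (SE 0.15). Its large subunit Rrm1 differed by 4.03. Uhrf1, which keeps DNA methylation through replication, read 8.48, 8.97 and 9.12 and 3.47, 4.13 and 5.19. Prim1, a subunit of the primase that starts new strands, read 7.66, 8.09 and 8.32 and 2.90, 3.63 and 4.25. Lig1, the ligase that joins them, read 8.91, 9.07 and 9.60 and 4.47, 5.09 and 5.56. None of these genes overlapped between the sides. Pcna, the sliding clamp of the replication fork, had a smaller gap, from 10.39 to 10.84 on the mature to 11.61 to 11.75 on the cycling arrays, a difference of 1.12. The members outside the count were the transcription factors E2f1, at 0.81, and E2f2, at 0.26 with overlap.

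Of 38 measured mitosis genes 37 were higher and 0 lower, with a median of 3.97. Top2a, the topoisomerase that untangles chromosomes, read 9.99, 10.07 and 10.14 on the cycling and 3.01, 3.71 and 4.78 on the mature arrays, a difference of 6.30 (SE 0.21). Cdk1, the kinase that drives entry into mitosis, read 9.60, 9.78 and 9.98 and 3.04, 3.51 and 4.12, a difference of 6.27 (SE 0.14). Its partner cyclin A2, Ccna2, read 10.39, 10.58 and 10.74 and 3.67, 4.20 and 6.00. The cycling arrays were closely alike for these genes, with an SD of 0.056 for Top2a and 0.14 for Cdk1, against 0.60 and 0.37 on the mature arrays. Nuf2 and Ndc80, subunits of the kinetochore complex that holds microtubules, differed by 6.01 and 5.28. Kif11, the motor that separates spindle poles, differed by 5.57, and Bub1, a spindle checkpoint kinase, by 5.13. Pttg1, securin, was the exception, with 7.21, 7.39 and 7.47 on the cycling and 7.54, 7.79 and 7.93 on the mature arrays, a difference of -0.37 that ran the other way. The mitosis list mean was 8.63 to 8.72 on the cycling arrays, 5.17 on TRIM33 replicate 2 and 4.52 to 4.67 on the other 5 mature arrays. In bulk samples such as these, fewer cells that express a gene and less of its RNA in each cell cannot be told apart.

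Promoter letters that are known from mitosis and replication genes are shown for 4 members, Top2a and Cdk1 of the mitosis list and Mcm6 and Mcm5, subunits of the replicative helicase, which were picked because they hold the motifs. Each window runs from 150 bases to 1 base before the gene's RefSeq start in GRCm38.p6, 5′ to 3′ on the gene's strand. Capitals mark matches to the cell cycle genes homology region (CHR, TTTGAA), the CCAAT box (CCAAT) or an E2F site (TTTCCCGC or TTTGGCGC), on either strand and with overlaps allowed. Top2a lies at chr11:99024190-99024339 on the minus strand, Cdk1 at chr10:69352913-69353062 on the minus strand, Mcm6 at chr1:128359706-128359855 on the minus strand and Mcm5 at chr8:75109359-75109508 on the plus strand.
Top2a: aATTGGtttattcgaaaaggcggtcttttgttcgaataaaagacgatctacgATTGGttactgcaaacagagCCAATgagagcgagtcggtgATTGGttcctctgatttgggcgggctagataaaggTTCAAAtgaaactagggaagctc
Cdk1: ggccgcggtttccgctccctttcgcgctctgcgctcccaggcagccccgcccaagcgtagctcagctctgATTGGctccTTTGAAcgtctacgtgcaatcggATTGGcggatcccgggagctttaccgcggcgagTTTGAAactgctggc
Mcm6: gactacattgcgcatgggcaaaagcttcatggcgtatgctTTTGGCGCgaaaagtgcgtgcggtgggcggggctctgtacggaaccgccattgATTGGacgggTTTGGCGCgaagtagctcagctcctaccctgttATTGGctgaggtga
Mcm5: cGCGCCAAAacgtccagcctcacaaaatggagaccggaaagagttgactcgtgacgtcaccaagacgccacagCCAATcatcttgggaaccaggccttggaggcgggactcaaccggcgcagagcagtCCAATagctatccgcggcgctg
The Top2a window holds 1 CHR match, 23 bases before the start, and 4 CCAAT matches, and that of Cdk1 holds 2 of each. The Mcm6 window holds 2 E2F and 2 CCAAT matches and that of Mcm5 1 and 2, with no CHR match in either. Mcm6 and Mcm5 themselves read 9.12, 9.26 and 9.31 and 8.54, 8.69 and 8.86 on the cycling arrays against 4.67, 5.52 and 5.93 and 5.08, 5.15 and 5.80 on the mature arrays.

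The counts that follow were made on a longer window, from 250 bases before to 50 bases after the RefSeq start. Over 16785 tested genes with such a window, 15.8% held a CHR match, 38.4% a CCAAT match and 2.14% an E2F match. On the mitosis list a CHR match was held by 23 of 31 windows (74.2%), a CCAAT match by 24 (77.4%), both by 21 (67.7%, against 6.35% of all genes) and an E2F match by 0. On the DNA replication list it was 4 of 32 windows for CHR (12.5%), 19 for CCAAT (59.4%) and 10 for E2F (31.2%). Between these lists the mitosis list thus held the CHR letters more often and the DNA replication list the E2F letters. Both lists had the same direction on the arrays. The CHR letters were not particular to the mitosis list. They were held by 13 of 30 replication-dependent histone windows (43.3%), 4 of 9 primary granule windows (44.4%) and 2 of 18 Ly6C-low monocyte windows (11.1%). A CCAAT match was held by 27 of the histone windows (90%). The median GC content was 45.2% on the histone list and 51% on the granule list. Of the genes counted as higher on the cycling arrays 481 had a window, of which 29.5% held a CHR and 11.2% an E2F match, and of the 296 counted as lower 16.9% and 1.01% did. The median GC content was 59.7% in the former, 56.5% in the latter and 56.7% over all windows. A match is a run of letters and not a bound site, and its part in the array values was not tested.

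Of 21 D cyclins, kinases and brakes of the cell cycle 6 were higher on the cycling arrays and 0 lower, with a median of 0.16. The list mean was 7.45 to 7.68 on the cycling and 6.92 to 7.10 on the mature arrays. E2f8 and E2f7, repressors of E2F target genes that are themselves made in S phase, read 8.84, 8.98 and 9.34 and 7.0, 7.44 and 7.60 on the cycling arrays against 5.64, 6.13 and 6.42 and 4.36, 4.76 and 5.02 on the mature arrays. Cdkn2c, the inhibitor p18, differed by 1.85 and Rbl1, the pocket protein p107, by 1.66. The kinases Cdk4 and Cdk2 differed by 1.43 and 1.14. The D cyclins were not counted, with Ccnd1 at -0.38, Ccnd2 at 0.22 and Ccnd3 at 0.0034, and neither were the inhibitors Cdkn1a at 0.09 and Cdkn1b at -0.30. Btg2, an antiproliferative gene, read 8.85, 9.28 and 9.82 on the cycling and 9.66, 10.18 and 10.98 on the mature arrays.

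Replication-dependent histone genes, transcribed in S phase, were higher in 16 of 34 members and lower in 0, with a median of 1.35. H2ac4, an H2A gene, read 8.83, 10.55 and 10.61 and 3.05, 3.65 and 4.43, a difference of 6.62 (SE 0.29). H3c10, an H3 gene, read 7.75, 9.96 and 10.17 and 3.36, 4.95 and 5.78, and H2ac11 7.78, 8.13 and 8.38 and 3.08, 3.30 and 3.88. In the cycling arrays these genes varied more than Top2a did, with an SD of 0.70 for H2ac4. The copies are nearly identical, so probes may not tell them apart, and most of their RNAs lack a poly(A) tail. Genes of cell growth moved little one by one, but mostly in the same direction. Of 17 ribosome biogenesis genes 2 were higher, Nop58 at 1.38 and Nop56 at 1.17, core proteins of the particles that modify ribosomal RNA, with a list median of 0.39. Of 58 genes of cytosolic ribosomal proteins 2 were higher, Rpl34 at 1.22 and Rpl35a at 1.10, with a median of 0.22. That count is near the share of 2.72% over all genes. Without TRIM33 replicate 2 the count was 4 and the median again 0.22. Of 58 respiratory chain genes 0 were counted in either direction, with a median of 0.28, but 53 had a positive difference. The members with the widest gaps were Cox6b2, at 0.80, and Ndufb3, at -0.74. Differences were also positive for 44 of the ribosomal protein and 14 of the biogenesis genes. None of the 3 list means overlapped between the sides. The respiratory chain mean was 8.91 to 9.23 on the cycling and 8.73 to 8.87 on the mature arrays. For ribosomal proteins it was 6.99 to 7.33 and 6.78 to 6.94, and for biogenesis 6.99 to 7.26 and 6.58 to 6.86.

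**Figure D3:**
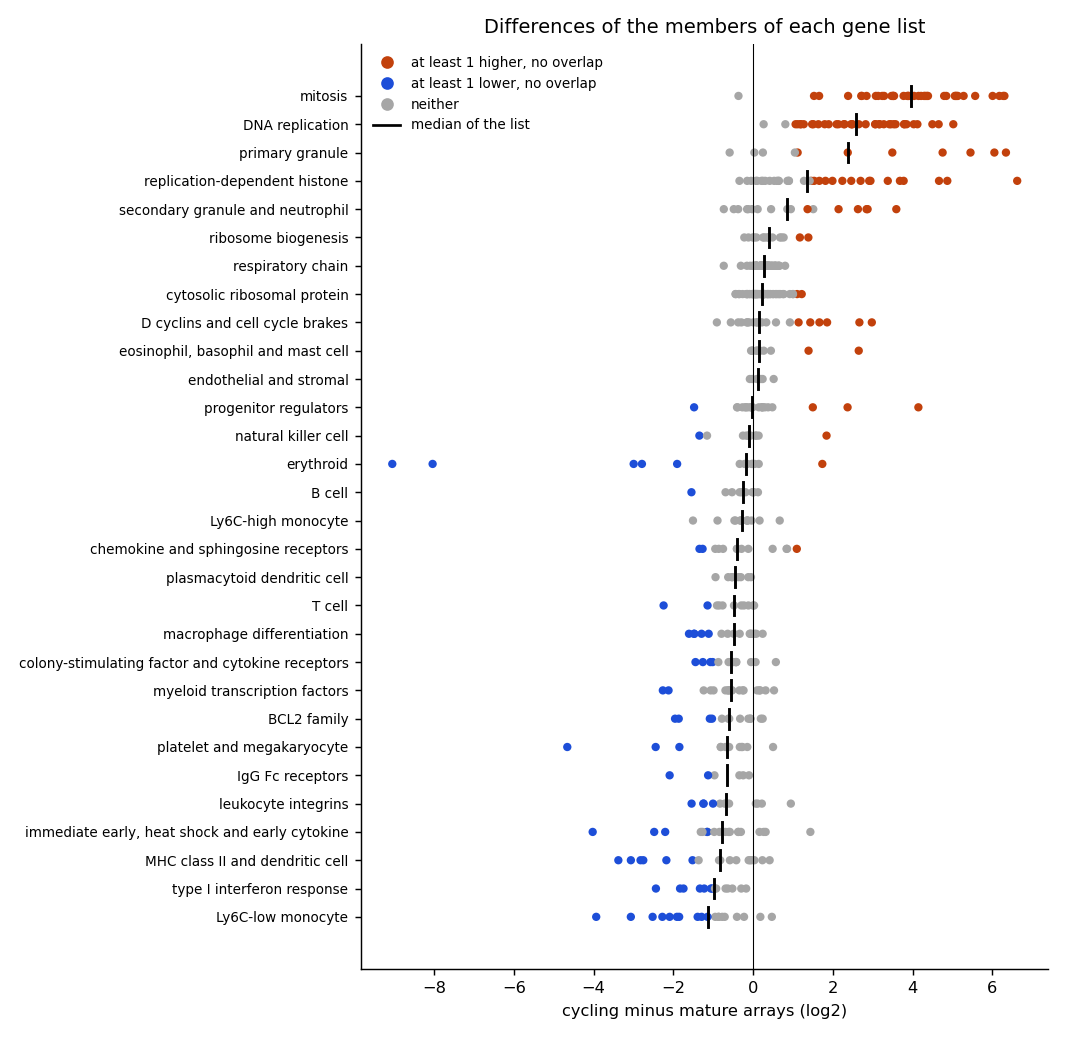
Difference of every measured member of the 30 gene lists (horizontal axis, cycling minus mature arrays, log2), a row per list sorted by its median (black bar), with members coloured by whether they passed the fold and overlap rule. Mitosis genes lie furthest to the right at a median of 3.97, and Ly6C-low monocyte genes furthest to the left at -1.15.

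Genes of Ly6C-high monocytes, the sorted population, had small differences between the sides. Of 13 members 0 were counted in either direction, with a median of -0.29, but 11 had a negative difference. The list mean was 10.18 to 10.48 on the cycling and 10.54 to 10.80 on the mature arrays, without overlap. Vcan, the matrix proteoglycan versican, had the widest gap, with 6.84, 7.65 and 8.20 on the cycling and 7.97, 8.95 and 10.33 on the mature arrays, and the sides overlapped. Clec4e, the lectin receptor Mincle, read 6.96, 7.39 and 8.18 and 7.70, 8.39 and 9.06, also with overlap. F13a1 differed by 0.16, Fn1 by -0.16 and Plac8 by -0.32. TRIM33 replicate 2 had the highest list mean of the mature arrays, 10.80 against 10.54 to 10.62.

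Genes of Ly6C-low monocytes were lower on the cycling arrays in 10 of 19 members and higher in 0, with a median of -1.15. Ace differed by -3.94 (SE 0.21), or 15.3-fold, and by -3.62 within the TRIM33 and -4.26 within the WT arrays. Treml4 differed by -3.07 (SE 0.18). Adgre4, the adhesion receptor EMR4, read 7.10, 7.26 and 7.50 on the cycling and 9.02, 9.93 and 10.09 on the mature arrays. Cd36, a scavenger receptor, read 3.63, 3.80 and 4.53 and 5.06, 6.54 and 6.97. Fcgr4, the Fc receptor of patrolling monocytes, read 4.61, 5.27 and 6.86 and 6.94, 7.31 and 8.43, so the highest cycling array came close to the lowest mature array. Nr4a1, the nuclear receptor on which Ly6C-low cells depend, read 8.18, 8.67 and 9.34 and 9.86, 10.42 and 11.72. It is also an immediate early gene, and its mean was 11.53 on the 2 mature arrays not titled as mixes and 10.15 on the mixes. Fabp4, a fatty acid carrier, differed by -1.86, Pou2f2, a transcription factor, by -1.29, and Eno3 and Dusp16 by -1.15 and -1.39. Cx3cr1, the fractalkine receptor, differed by -0.95 with overlap. Other members showed no such gap: Itgax, which encodes CD11c, differed by -0.71, Cd9 by 0.18, and Spn, which encodes CD43, by 0.47. The list mean was 6.17 to 6.51 on the cycling arrays, 7.25 on TRIM33 replicate 2 and 7.68 to 7.92 on the other mature arrays.

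MHC class II genes, which present antigen, were lower on the cycling arrays. Of 17 members of the MHC class II and dendritic cell list 6 were counted as lower and 0 as higher, with a median of -0.83, and 7 as lower without TRIM33 replicate 2. H2-Aa read 6.30, 6.79 and 7.17 on the cycling and 8.66, 10.42 and 10.60 on the mature arrays, a difference of -3.38 (SE 0.27). Its partner chain H2-Ab1 read 6.76, 7.52 and 8.47 and 9.54, 10.88 and 10.95, and H2-Eb1 5.24, 5.74 and 6.14 and 7.16, 8.86 and 9.15. Cd74, the invariant chain, differed by -2.76, and Ciita, the master activator of these genes, by -1.52. The 6 also include Batf3, a transcription factor of conventional dendritic cells and monocytes, with 5.56, 5.69 and 6.19 and 7.04, 8.15 and 8.20. TRIM33 replicate 2 was the lowest mature array for each of the 6, and its list mean was 6.62 against 7.27 to 7.43 on the other mature arrays. The peptide-loading genes H2-DMa and H2-DMb2 did not follow, at -0.42 and 0.23, nor did the dendritic cell genes Zbtb46, at 0.029, and Xcr1, at -0.044, which read 3.56 to 3.74 and 3.40 to 3.67 on the mature arrays. Cd209a, a lectin of monocyte-derived dendritic cells, differed by -1.37 with overlap.

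Genes of macrophage differentiation were lower in 5 of 15 members, with a median of -0.49. Apoe, apolipoprotein E, read 9.39, 9.69 and 10.17 on the cycling and 11.12, 11.37 and 11.65 on the mature arrays, a difference of -1.61 (SE 0.14). Mrc1, the mannose receptor, read 4.53, 4.77 and 5.16 and 5.35, 6.57 and 6.91. C1qb, a chain of complement C1q, differed by -1.48, Adgre1, an adhesion receptor of macrophages, by -1.30, and the receptor tyrosine kinase Axl by -1.12. All 5 were lower on every cycling array. Of 19 myeloid transcription factors 2 were lower, with a median of -0.55, and 4 without TRIM33 replicate 2. Irf4, a factor of monocyte and dendritic cell fates, read 4.65, 5.55 and 5.78 and 7.09, 7.57 and 8.30, and Maf, a macrophage factor, 5.58, 6.15 and 6.90 and 7.88, 8.33 and 8.75. Among factors that set up the lineage, Spi1 differed by -0.35 and Cebpb by -0.26, while Irf8 differed by 0.52 and Klf4 by 0.31. Irf8 had the highest difference of the list, on which 14 of 19 were negative.

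Receptors for chemokines, sphingosine phosphate and chemotactic peptides split in direction, with 1 of 13 higher and 2 lower, and 2 and 4 without the mixes. Fpr2, a formyl peptide receptor, read 7.83, 8.21 and 9.15 on the cycling and 9.41, 9.68 and 10.18 on the mature arrays, and C5ar1, the receptor of complement C5a, 4.03, 4.60 and 5.33 and 5.45, 6.06 and 6.50. S1pr3, a sphingosine phosphate receptor, was higher on the cycling arrays, with 4.30, 4.84 and 5.09 against 3.44, 3.69 and 3.98. Cxcr4, which retains myeloid cells in the bone marrow, read 10.44, 10.64 and 10.74 and 9.39, 9.71 and 10.21, a difference of 0.85 without overlap but under 1. Of 12 leukocyte integrins 4 were lower, with a median of -0.69. Itgb5 differed by -1.55, Itga4, part of the VLA-4 integrin, by -1.25, Itgal, part of LFA-1, by -1.24, and Itga5 by -1.01. Of 6 IgG Fc receptor genes 2 were lower, Fcgr4 at -2.10 and the inhibitory receptor Fcgr2b at -1.13. Of 16 receptors of colony-stimulating factors and cytokines 4 were lower, with a median of -0.55, namely Tnfrsf1b at -1.45, Il10ra at -1.26, Csf1r at -1.07 and Csf3r at -1.02. These encode a TNF receptor, the interleukin 10 receptor, the receptor of the macrophage growth factor and that of the granulocyte growth factor.

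Genes of the BCL2 family, which control cell death, were lower in 4 of 13 members, with a median of -0.60. Bcl2a1a and Bcl2a1b, nearly identical survival genes whose probes may not tell them apart, differed by -1.96 and -1.87. Bmf and Bcl2l11, which promote death, differed by -1.09 and -1.03. Members of both kinds thus lay on the same side, while Bcl2 itself differed by -0.069. Type I interferon response genes were lower in 7 of 14 members, with a median of -0.996, and all 14 differences lay below 0. Rsad2, viperin, read 5.72, 5.78 and 6.46 on the cycling and 7.77, 8.34 and 8.94 on the mature arrays. Oas2 and Oas3, sensors of double-stranded RNA, differed by -1.84 and -1.75, Ifit1 by -1.34 and Irf7, the factor that amplifies the response, by -1.23. The list mean was 6.92 to 7.40 on the cycling and 7.95 to 8.46 on the mature arrays.

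Immediate early, heat shock and early cytokine genes, which respond within minutes to activation and to handling, were lower in 4 of 20 members, with a median of -0.77. Without the mixes 11 were lower. Egr1, a zinc finger factor, read 4.58, 4.96 and 5.13 on the cycling and 7.21, 8.73 and 10.97 on the mature arrays, a difference of -4.03 (SE 0.55), and its mean was 10.19 on the 2 mature arrays not titled as mixes and 8.36 on the mixes. Il1b, interleukin 1 beta, read 5.42, 6.14 and 7.01 and 8.05, 8.45 and 9.18, and Hspa1a, an inducible heat shock protein, 4.55, 5.32 and 5.90 and 6.60, 7.17 and 9.40. Junb differed by -1.15. The list mean was 7.50 to 7.91 on the cycling arrays, 7.76 to 8.47 on the mixes, and 8.96 and 9.58 on TRIM33 replicate 1 and WT replicate 4. TRIM33 replicate 3, at 7.76, thus lay inside the cycling range, and the 2 arrays not titled as mixes lay furthest from it. Ccl3, a chemokine, went the other way with overlap, at 9.55, 10.32 and 10.54 on the cycling and 6.56, 8.47 and 11.37 on the mature arrays.

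**Figure D4:**
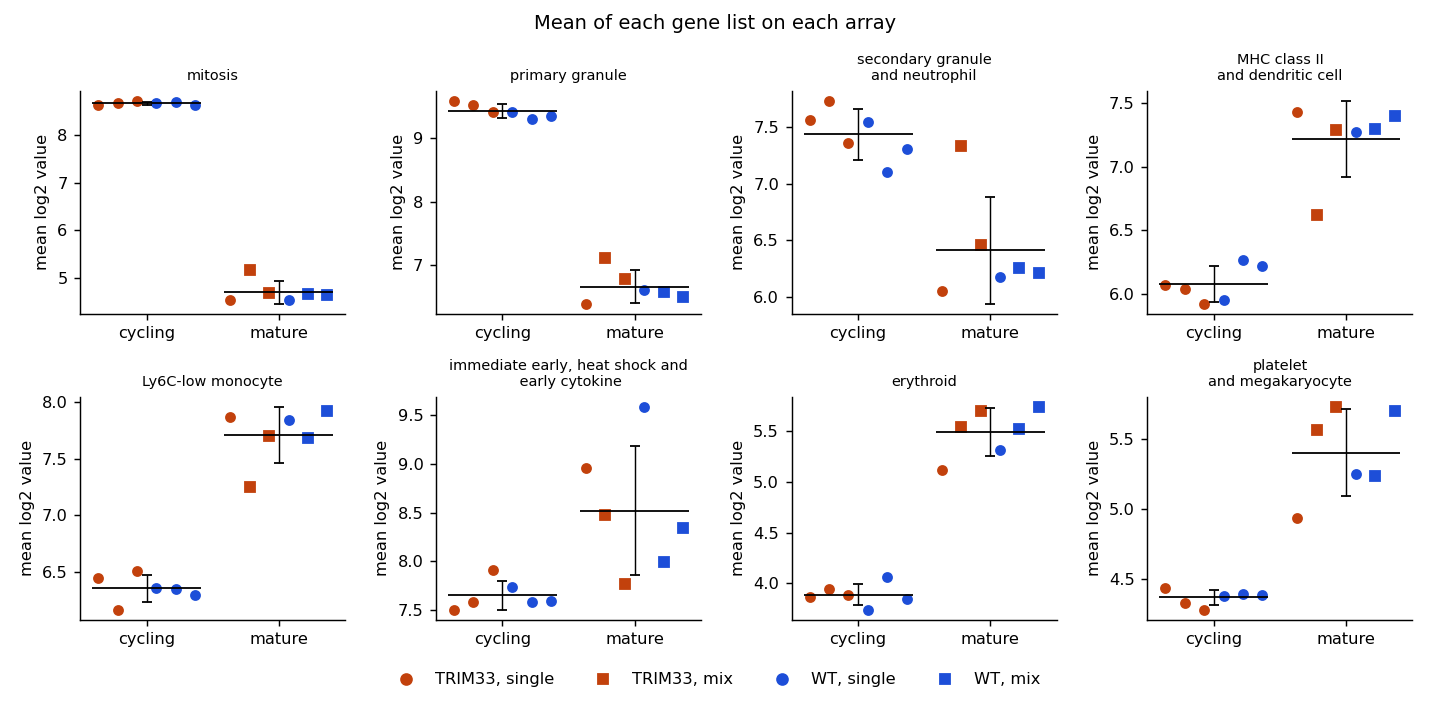
Mean log2 value of the members of 8 gene lists on each array (vertical axis), by side, with bars at the mean and the SD of 6 arrays. Each panel has its own scale that does not start at 0. Among the mature arrays TRIM33 replicate 2 lies apart for the mitosis (5.17), neutrophil (7.34), MHC class II (6.62) and Ly6C-low (7.25) lists, and the arrays not titled as mixes lie highest for the immediate early list.

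Red cell genes had the widest measured gaps, but only part of the list differed. Of 15 autosomal erythroid genes 5 were lower on the cycling arrays and 1 higher, with a median of -0.18, and 4 of the 15 lay below the dim yardstick on both sides. Hbb-bs, a beta globin, read 1.5, 2.15 and 3.30 on the cycling and 10.61, 11.51 and 11.84 on the mature arrays, a difference of -9.06 (SE 0.31). Hbb-b1 differed by -8.04 (SE 0.20). The globin genes are nearly identical, so their probes may not tell them apart. Their cycling values lie in or near the dim range, so no fold is given. Car2, a carbonic anhydrase, read 2.30, 3.14 and 3.70 and 4.15, 6.10 and 7.31. Bpgm, which makes the bisphosphoglycerate of red cells, read 4.41, 4.55 and 4.67 and 6.02, 7.73 and 8.05, and Slc4a1, the anion exchanger band 3, 3.99, 4.19 and 4.66 and 5.08, 6.10 and 7.18. On the X chromosome, Alas2, the first enzyme of red cell haem synthesis, read 3.57 to 4.14 and 7.83 to 10.20. Of the nuclear and early markers, Klf1, the erythroid master factor, read 3.91 to 4.30 and 3.81 to 4.13. Epor, the erythropoietin receptor, read 3.92 to 4.51 and 4.08 to 4.53. Both lay near the dim yardstick on both sides and so carry little information. Over the 15 members 12 differences were negative. Tfrc, the transferrin receptor of growing and early erythroid cells, was higher on the cycling arrays, with 5.92, 6.29 and 6.50 against 4.20, 4.58 and 4.81. The genes differed between mixes and other mature arrays too, in that the means were 7.86 and 6.32 for Bpgm and 6.64 and 4.95 for Car2, but 11.19 and 11.12 for Hbb-b1.

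Platelet and megakaryocyte genes were lower in 3 of 12 members, with a median of -0.65. Ppbp, platelet basic protein, read 3.31, 3.56 and 3.77 on the cycling and 6.77, 8.47 and 8.96 on the mature arrays, a difference of -4.66 (SE 0.30). Pf4, platelet factor 4, read 3.86, 3.95 and 4.14 and 5.23, 6.28 and 7.55, and Gp9, a subunit of the von Willebrand factor receptor, 4.16, 4.42 and 4.71 and 4.88, 6.28 and 7.56. On the cycling arrays all 3 read near the dim yardstick. The list mean was 4.28 to 4.44 on the cycling arrays, 4.94 and 5.25 on TRIM33 replicate 1 and WT replicate 4, and 5.23 to 5.73 on the mixes. Red cell and platelet RNA was thus higher on the mature arrays with or without the mixes, and its part in the other differences was not tested.

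Markers of other blood cells lay partly in the dim range, and the members below the yardstick on both sides were 5 of 11 on the B cell, 4 of 11 on the T cell, 4 of 11 on the natural killer cell, 6 of 11 on the eosinophil, basophil and mast cell and 1 of 8 on the plasmacytoid dendritic cell list. Of the 11 B cell genes 1 was lower, Cd79a, a part of the B cell receptor, with 2.88, 2.93 and 3.13 on the cycling and 3.67, 4.36 and 5.42 on the mature arrays. Pax5 differed by 0.0048 and Ms4a1, which encodes CD20, read 2.39 to 3.43 on the mature arrays. Of 11 T cell genes 2 were lower, and 5 without the mixes, while 10 had a negative and 1 a positive difference. The T cell list mean was 3.54 to 3.71 on the cycling and 4.03 to 4.51 on the mature arrays, without overlap. Cd2, an adhesion receptor, read 3.42, 3.67 and 4.21 and 5.58, 5.79 and 6.67, and Cd8b1 3.08, 3.23 and 3.59 and 3.85, 4.39 and 5.39. Natural killer genes split, with Gzma, granzyme A, lower at -1.35 and Nkg7, a granule protein of cytotoxic cells, higher at 1.84. The activating receptor Ncr1 read 3.02 to 3.51 on the cycling and 3.14 to 3.63 on the mature arrays. Of 11 eosinophil, basophil and mast cell genes 2 were higher on the cycling arrays and 0 lower. Prg2, the eosinophil major basic protein, read 4.81, 6.54 and 7.53 against 3.17, 3.79 and 3.96, and Mcpt8, a basophil protease, 4.61, 4.99 and 5.23 against 3.32, 3.66 and 3.69. Among the cycling arrays Prg2 was 7.03 to 7.53 on the TRIM33 and 4.81 to 6.05 on the WT arrays. Plasmacytoid dendritic cell genes and endothelial and stromal genes held 0 counted members of 8 and of 7. All 8 plasmacytoid genes had a negative difference. Their list mean was 4.85 to 5.20 on the cycling and 5.36 to 5.59 on the mature arrays, without overlap. The widest gaps on these lists were Tcf4, a transcription factor, at -0.95, and Ccr9, a chemokine receptor, at -0.63. Pecam1, which encodes CD31, followed at 0.51 and Col1a1, a collagen, at 0.24.

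Since genotype played no part in how the sides were chosen, whether the genotype difference was the same on both sides could be tested. The sides still came from these same values, those of the tested genes included, and the p-values take the sides as given. Trim33 itself, the gene the study is about, read 6.08 to 6.19 on the TRIM33 and 6.81 to 7.05 on the WT cycling arrays, and 6.06 to 6.23 and 6.92 to 6.93 on the mature arrays. The TRIM33 minus WT difference was -0.79 on each side, and no TRIM33 array overlapped a WT array. The interaction of genotype and side for Trim33 was -0.0032 (SE 0.15, limma with Benjamini-Hochberg adjustment, adjusted p = 0.9995), and the gene matched the genotype labels on both sides of the split. The labels do not say which exon the probes cover.

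Of the 22271 autosomal genes 1 (0.00449%) passed the interaction test at an adjusted p under 0.05, with 927 at an unadjusted p under 0.05. With 3 arrays of each genotype on each side, smaller interactions can be missed. A gene that did not pass is thus not shown to have the same genotype difference on both sides. The gene that passed was Stfa2l1, a stefin-like gene of the cysteine protease inhibitor family. On the cycling arrays it read 2.81 to 3.44 in TRIM33 and 2.60 to 3.11 in WT, a difference of 0.30. On the mature arrays it read 5.88 to 6.87 in TRIM33 and 2.48 to 3.24 in WT, a difference of 3.65. It was thus above the dim range on the 3 mature TRIM33 arrays and in it on the other 9. The interaction was -3.35 (SE 0.37, limma adjusted p = 0.0107). The stefin genes are nearly identical, so probes may not tell Stfa2l1 from its neighbours. The call was lost when TRIM33 replicate 3, 4 or 6 or WT replicate 2, 3 or 6 was left out, with adjusted p-values of 0.053 to 0.074 and interactions of -3.18 to -3.37. The gene next in order was Apcdd1, an inhibitor of WNT signalling, with TRIM33 minus WT differences of 2.38 on the cycling and 3.61 on the mature arrays (limma adjusted p = 0.136). Spsb1 and Foxm1 followed at -1.13 and -0.80 (limma adjusted p = 0.997 for both). Foxm1, a transcription factor of mitosis genes, read 8.42 to 8.49 in TRIM33 and 8.53 to 8.80 in WT on the cycling arrays, and 4.86 to 5.06 and 4.35 to 4.41 on the mature arrays.

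**Figure D5:**
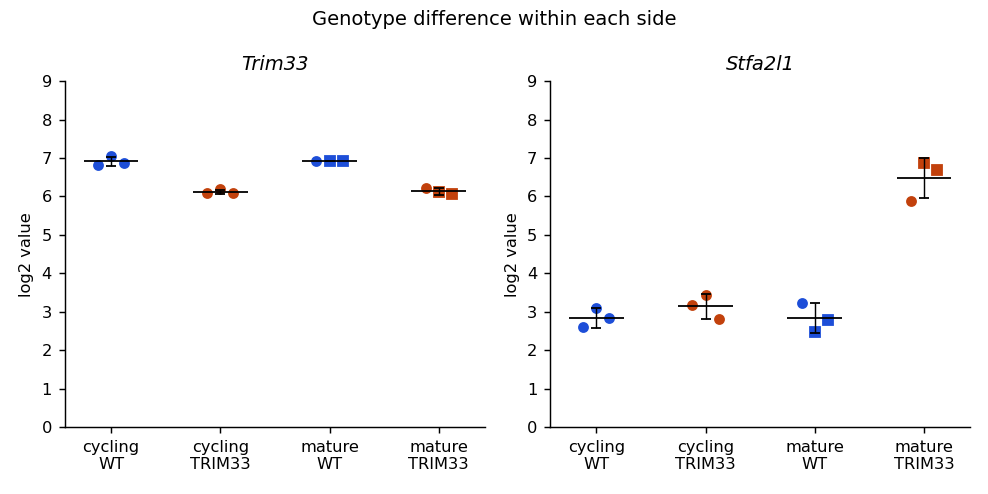
Log2 value (vertical axis) of Trim33 and Stfa2l1 on each array by side and genotype, with bars at the mean and the SD of 3 arrays; squares are arrays titled as mixes. The TRIM33 minus WT difference of Trim33 is -0.79 on each side, and Stfa2l1 lies at 5.88 to 6.87 on the mature TRIM33 arrays and at most at 3.44 elsewhere.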

How the data were processed

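Per the labels' protocols, RNA was isolated by column (RNeasy Mini), and biotinylated cDNA was made from 900 pg with NuGEN's Ovation Pico V2 chemistry. The deposited values are log2 expression values that the authors made, 1 for each of 24479 gene-level features on 12 arrays. RMA and Partek were used, per the submitters' processing notes, with versions, chip definition, genome build and any batch step not given in the sources used here. RMA gives all arrays the same distribution of values, which can mask a general shift in expression, and it compresses differences between dim genes. Array medians were 4.16 to 4.25. The number of arrays limits the precision.

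Of the features 23281 carried 1 gene symbol, 0 several and 1198 none, and RefSeq (GRCm38.p6) changed 0 symbols by Entrez number. For the 2 symbols with several features the brighter feature on average was used, giving 23279 genes. The comparison used 22271 autosomal genes, after 965 genes on X or Y and 43 without an autosome were left out. Differences are means of the cycling minus the mature arrays with genotype as a covariate (lmFit and eBayes of limma 3.58.1, R 4.3.3, for the SE). A gene was counted as higher or lower where the log2 difference was at least 1 and the 6 and 6 arrays did not overlap. The sides were found by clustering these values, so no side difference was tested. The interaction of genotype and side was tested in limma with Benjamini-Hochberg adjustment over all 22271 genes at 0.05.

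The arrays compared, the markers and the 30 gene lists, with 568 autosomal genes, were chosen with earlier results of these data known. A further 24 list genes are not analysed here, and 8 on X or Y were left out. Named genes were the markers and Trim33, up to 5 members of each list in each direction among those counted (otherwise the 2 widest gaps), the 15 widest gaps in each direction over all genes without predicted genes (21 of those counted as higher and 23 of those counted as lower), and the interaction genes by p. Other genes, such as those named as exceptions, were chosen after their values were seen. Promoter windows came from RefSeq, with the window listed first for each gene. Alternatives covered normalization, filters, thresholds, preparation, genotype and each array left out in turn. Python 3.11.15 with matplotlib 3.10.9 drew the figures.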

Additional observations from a re-analysis of the deposited data

Results flagged for a closer look

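In 74 groups of 6 arrays (list means and marker genes by side), 10 held an array whose gap to the nearest of the others, as a share of the group's range, exceeded Dixon's 95% critical value for 6 arrays. Chance flags about 1 in 20 independent groups. These groups share arrays and partly genes, so 10 of 74 cannot be set against that rate. TRIM33 replicate 2 accounts for 7 of the 10, all on the mature side. It was highest for the secondary granule and neutrophil list (7.335, the other 5 at 6.053 to 6.457), the mitosis list (5.167, others 4.525 to 4.67) and the Ly6C-high monocyte list (10.8, others 10.54 to 10.62). It was lowest for the Ly6C-low monocyte list (7.247, others 7.683 to 7.919), the MHC class II and dendritic cell list (6.62, others 7.274 to 7.428), the natural killer cell list (4.17, others 4.365 to 4.48) and Ace (8.253, others 9.231 to 9.575). It is an array titled as a mix. Its neutrophil, mitosis, Ly6C-low and MHC class II means lay towards the cycling arrays and its Ly6C-high mean away from them (10.18 to 10.48 on the cycling arrays), while the other mix of the same genotype did not stand apart.

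WT replicate 4 had the highest mean of the IgG Fc receptor list on the mature side (9.934, others 9.627 to 9.73). On the cycling side TRIM33 replicate 5 had the highest Hbb-b1 value (4.312, others 2.76 to 2.967). WT replicate 1 had the lowest endothelial and stromal list mean there (4.083, others 4.127 to 4.149), a gap of a few hundredths in a list that is mostly dim.

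Stfa2l1 was marked because its genotype difference was not the same on both sides by the limma interaction test (-3.3492, adjusted p = 0.0107). The gene was high on the 3 mature TRIM33 arrays, of which 2 are titled as mixes, and dim on the other 9 arrays.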

How the results depend on the processing

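With a difference of at least 0.5 in place of 1 the counts were 1298 higher and 1085 lower, and with at least 2 they were 250 and 64. Each array left out in turn gave 588 to 629 higher and 380 to 408 lower genes, and the other alternatives stayed within 1.5 times the reported counts. Of 540 values of list means under other settings 518 moved by less than the spread between arrays, 21 by more and 1 reversed, the B cell list at 0.04462 with genes above the median gene only. Under that filter the natural killer cell list, whose sides overlapped, also changed sign, from -0.1027 to 0.3608. The filter gave means of -1.376 for the MHC class II, -3.30 for the erythroid, -1.505 for the platelet, 1.987 for the histone, 1.493 for the eosinophil, basophil and mast cell (0.4674 without it) and 0.6756 for the progenitor list (0.3215 without it). Without the mixes they were -1.621 for the immediate early list (-0.869 with them), 2.764 for DNA replication, -1.327 for erythroid and -0.7276 for platelet genes. The histone list gave 1.907 in the TRIM33 and 1.458 in the WT arrays alone, and the IgG Fc receptor list -0.6076 and -1.027 (-0.8173 with both genotypes).

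The count of interaction genes was 1 in most settings, with the mix number as a replicate block among them (adjusted p = 0.043, limma), 0 to 1 with each array left out, and 0 with genes above the median gene only, where Stfa2l1 was not tested and 460 genes had an unadjusted p under 0.05. The mix number covers 4 arrays and the other 8 formed a block of their own. All side differences rest on 6 against 6 arrays. Preparation, the sex-linked genes and side are partly or wholly confounded and cannot be told apart. Dim genes carry little information.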

Other observations

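Gene families grouped by the start of their symbol, a grouping made after the data were seen, showed which families of cell division genes lay with the cycling arrays. Some members, such as Kif11, Cenpa, Ms4a3 and Ctsg, are also on the lists above and are counted here again. Over all autosomal genes 2.72% were higher and 1.71% lower by the same rule, and a single counted member is not read as a result. Of 20 Cenp genes, which encode centromere proteins, 16 were higher by at least 1 log2 unit without overlap and 0 lower, with a median of 2.16. All 7 Cdca genes, whose products act in cell division, were higher, with a median of 3.44. Of 8 genes of the condensin complexes, which compact chromosomes, 7 were higher, with a median of 3.50. Kinesins were selective, with 12 of 43 higher, Kif11 and Kif15 among them, 1 lower (Kif9) and a median of 0.029. Of 17 tubulin genes 4 were higher and 1 lower.

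Families of leukocyte surface and interferon-inducible genes differed in how many members were lower on the cycling arrays, against 1.71% of all autosomal genes. Of 8 genes of the SLAM family, which encode adhesion receptors of leukocytes, 4 were lower on the cycling arrays (Slamf7, Cd244a, Slamf9 and Slamf8) and 0 higher, with a median of -1.22. Of 10 Cd300 receptors 3 were lower, with a median of -0.70. Of 10 Gbp genes, which encode interferon-induced guanylate-binding proteins, 4 were lower, with a median of -0.85, and of 9 genes of the Ifi200 family 4, with a median of -1.11. C-type lectins had 5 of 33 members lower, with a median of -0.11. The 1 higher member, Clec5a, is near the share of 2.72% over all genes. Of 9 toll-like receptors 1 was lower (Tlr3), with a median of -0.67, and of 4 Lilr and Pir receptors 0 were counted, with a median of -0.64. Of 6 Siglec genes Siglecg was higher and Siglec1 lower, and of 13 Apol genes 1 was lower. Of 20 Ms4a genes Ms4a3 was higher and Ms4a4a and Ms4a7 were lower. Of 18 cathepsins Ctsg was higher and 0 were lower.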
